A study of Mus musculus with 16 samples.

Results

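The transcripts described here are 10 markers of fat-tissue fibroblasts and preadipocytes, the stromal progenitor cells of adipose tissue: Dcn, Lum, Pdgfra, Pdgfrb, Dpt, Mfap5, Pi16, Dpp4, Cd34 and Thy1. They were chosen by gene name, as stromal markers other than collagens, and all 10 were found among the 37310 genes of the deposited table. The list was drawn up with earlier results of the same table known, so the values below describe these transcripts and give no independent test of them. The table holds F4/80+ adipose tissue macrophages (ATMs) sorted from epididymal fat pads of 16 male mice, 4 in each of 4 groups. WT and IRF5-KO mice, which were 7 to 10 weeks old at the start, received a high-fat diet (HFD) for 4 weeks (short term, ST-HFD) or 12 weeks (long term, LT-HFD), so all 4 groups share the diet. IRF5-KO mice carry floxed Irf5 (C57BL/6-Irf5tm1Ppr/J) and LysM-Cre (B6.129P2-Lyz2tm1(cre)Ifo/J), a Cre inserted at Lyz2 that is active in macrophages, monocytes and neutrophils, while the alleles of the WT mice are not given in the sources used here. F4/80+ cells were taken with antibody-coated magnetic beads, according to the methods of the study. Diet duration, the age of the mice at collection and any batch of preparation between the durations cannot be told apart.

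Stromal progenitors are the fibroblast-like cells from which new adipocytes arise. They lie around vessels and in the connective tissue sheets of the fat pad, secrete most of its matrix, and are usually recognised by the PDGF receptors at their surface. A subset that carries Dpp4 and Pi16 is placed upstream of the committed preadipocytes and lies in the sheet that covers the pad. Macrophages express F4/80 (Adgre1), Csf1r, Cd68 and the C1q chains, and are not known as a main source of the 10 transcripts. In RNA from a bulk sort, more cells of a type and more RNA per cell cannot be told apart.

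The promoters of the transcripts that moved most and least, among those for which the RefSeq table (GRCm38.p6) had an entry, are shown for the regulatory sequence next to the starts. An entry was found for 5 of the 10, Pdgfra, Dpt, Pi16, Dpp4 and Cd34. The 250 bases before the start are given 5′ to 3′ on the strand of the gene. Capitals mark matches, on either strand, to the TATA box (TATAAA), the GC box (GGGCGG), the TEAD motif (GGAATG), the AP-1 motif (TGANTCA) or the letters of the CCAAT box.
Pdgfra, chr5:75152001-75152250, plus strand: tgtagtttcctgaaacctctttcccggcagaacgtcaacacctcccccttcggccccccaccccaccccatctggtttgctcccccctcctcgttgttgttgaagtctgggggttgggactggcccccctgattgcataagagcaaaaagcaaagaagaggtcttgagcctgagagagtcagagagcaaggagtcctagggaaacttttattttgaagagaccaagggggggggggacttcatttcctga
Dpt, chr1:164796413-164796662, plus strand: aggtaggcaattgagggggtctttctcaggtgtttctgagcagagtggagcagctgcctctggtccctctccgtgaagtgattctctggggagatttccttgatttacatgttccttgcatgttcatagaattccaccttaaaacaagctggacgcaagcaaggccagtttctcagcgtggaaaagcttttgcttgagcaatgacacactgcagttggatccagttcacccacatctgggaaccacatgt
Dpp4, chr2:62412232-62412481, minus strand: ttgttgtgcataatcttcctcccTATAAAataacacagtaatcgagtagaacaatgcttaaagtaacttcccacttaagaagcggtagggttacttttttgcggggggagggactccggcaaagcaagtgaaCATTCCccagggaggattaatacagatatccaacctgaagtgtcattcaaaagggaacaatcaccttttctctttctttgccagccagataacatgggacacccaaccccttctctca
Pdgfra and Dpt, the pair of these 3 with the larger differences between diet durations, hold none of the 5 motifs in this window. Dpp4, with the smallest, holds 1 TATAAA and 1 TEAD match, which do not overlap. Among 32851 promoter windows of the same length, TATAAA was found in 12.4%, the TEAD motif in 12.6%, the AP-1 motif in 6.75%, CCAAT in 33.8% and the GC box in 32.7%. Of the 2 windows not printed, Cd34 holds no match and Pi16 holds 1 CCAAT. A match is a run of letters, and no match says only that these letters are not in this window.

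After 4 weeks the libraries held 3860469 to 4958131 counts, and after 12 weeks 3279332 to 3792898. The 3 most abundant features, mmu-mir-689-2, mt-Rnr1 and mt-Rnr2, took 18.6% to 24.1% of the counts after the short diet and 26.1% to 34.5% after the long one. Depth and this share moved with diet duration in every library. A fit without the 3 features gave the same numbers of called transcripts among the 10 as below. Over all genes, the calls between durations in WT moved from 1401 higher and 1527 lower to 1425 and 1498. Beyond that fit, the part of depth and of this share in the results was not tested. The sorting marker Adgre1 had 507 to 995 CPM (counts scaled to equal library sizes, with TMM factors over the 16 libraries), and all 14 macrophage markers passed the filter in every comparison. Irf5 was 203 to 252 CPM in the libraries labelled WT and 250.4 to 274 in those labelled IRF5-KO on ST-HFD, and 170.5 to 213 against 206 to 253 on LT-HFD. The targeted gene was thus no lower under the label IRF5-KO, its deleted exons are not counted apart, and each direction between genotypes below rests on the labels. The durations rest on the deposited titles as well: the titles, the time labels and the column names give them alike, and they were used throughout. A single plot of Irf5 in ATMs in the study appears to name the durations the other way round, and whether any of these names were exchanged was not tested.

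The 10 transcripts made up a small share of the RNA in every ST-HFD library, and their summed share was higher in every LT-HFD library. Together they took 0.0120% to 0.0341% of all counts on ST-HFD, whereas on LT-HFD they took 0.0975% to 0.430%, without overlap. All 10 passed the filter on low counts on the ST-HFD libraries alone, so none entered the comparison only through the duration in which it was high. In WT, 9 of 10 were called higher on LT-HFD as the titles name it (edgeR's quasi-likelihood test, adjusted p under 0.05), where 12.1% of 11560 tested genes were called higher and 25.3% in either direction. In IRF5-KO, 7 of 10 were called higher, where 15.6% were called higher and 32.8% in either direction. Since the list was drawn up with such differences known, nothing is read from these counts beyond their size. The median log2 fold change of the 10 was 2.93 in WT and 2.74 in IRF5-KO, against 0.02 and 0.04 over all tested genes, and all 10 values were above 0 in both genotypes, as were 51.9% and 53.1% of tested genes. For 8 transcripts in WT and 7 in IRF5-KO the LT-HFD libraries all lay above the ST-HFD libraries, as 12.3% and 14.3% of tested genes did.

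**Figure D1:**
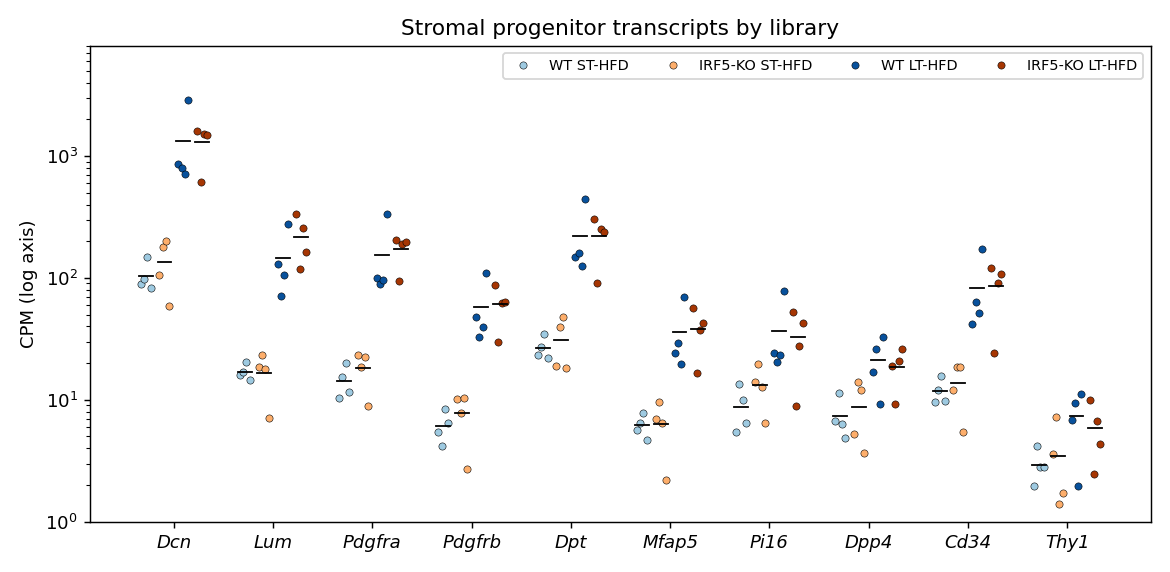
Level of each of the 10 transcripts in CPM, on a log axis, in the 16 libraries, coloured by group. Points are libraries and bars are group means. Dcn lies highest throughout, and the LT-HFD libraries stand above the ST-HFD libraries for 7 transcripts in both genotypes, while Dpp4 and Thy1 overlap in both.

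The matrix proteins come first, because they held most of the counts. Dcn (ENSMUSG00000019929, chr10:97479609-97518143 of GRCm38, plus strand) encodes decorin, a small leucine-rich proteoglycan that binds collagen fibrils and TGF-beta. Its level was 88.6, 97.0, 149.8 and 82.0 CPM in WT replicates 1 to 4 on ST-HFD, and 105, 180.3, 200.3 and 58.8 CPM in IRF5-KO. On LT-HFD it was 863, 799, 712 and 2899.9 CPM in WT and 1594, 607, 1528 and 1488 CPM in IRF5-KO. The lowest LT-HFD library, IRF5-KO replicate 2, was still above the highest ST-HFD library. The log2 fold change was 3.66 (standard error 0.49) in WT, or 12.7-fold, and 3.26 (0.48) in IRF5-KO, or 9.59-fold. Decorin alone supplied 46.7% to 57.3% of the counts of the 10 transcripts on ST-HFD, whereas on LT-HFD it supplied 57.4% to 65.4%.

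Lum (ENSMUSG00000036446, chr10:97565128-97572703, plus strand) encodes lumican, another leucine-rich proteoglycan of collagen fibrils, and is the next gene after Dcn. The 2 genes are 46984 bases apart on the same strand with 0 annotated genes between them. Lum was 14.5 to 20.5 CPM in WT, or 73 to 82 counts, and 18.4, 23.2, 18.0 and 7.14 CPM in IRF5-KO on ST-HFD. It was 129.7, 71.3, 106 and 279 CPM in WT and 333, 119, 255 and 163 CPM in IRF5-KO on LT-HFD. No library of either duration reached into the range of the other. Its log2 fold change was 3.12 (0.41) in WT and 3.70 (0.42) in IRF5-KO, the largest of the 10 in IRF5-KO. Relative to its neighbour, Lum stood at 8.92 to 15.0 counts per 100 Dcn counts in WT and 10.98 to 20.9 in IRF5-KO on LT-HFD.

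Dpt (ENSMUSG00000026574, chr1:164796644-164824266, plus strand) encodes dermatopontin, a small matrix protein that binds decorin, and is the second of the 10 per kilobase of annotated exon. In WT it was 23.2, 26.9, 34.9 and 22.1 CPM on ST-HFD and 148, 159, 125 and 444 CPM on LT-HFD. In IRF5-KO it was 19.0, 39.6, 47.4 and 18.2 CPM on ST-HFD and 304, 90.0, 249.7 and 239 CPM on LT-HFD. The durations did not overlap in either genotype, with log2 fold changes of 3.04 (0.44) and 2.83 (0.44). Gm32569 overlaps Dpt on the opposite strand, as other annotated genes do for Pdgfra, Pi16, Dpp4 and Cd34, and the strand setting of the counting is not given in the sources used here.

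Mfap5 (ENSMUSG00000030116, chr6:122505845-122529290, plus strand) encodes a glycoprotein of the fibrillin microfibrils and is a marker of universal fibroblasts. It ranged from 4.71 to 7.84 CPM in WT and from 2.22 to 9.52 CPM in IRF5-KO on ST-HFD, or 9 to 37 counts. On LT-HFD it was 24.4, 29.0, 19.7 and 69.6 CPM in WT and 56.1, 16.5, 37.1 and 42.6 CPM in IRF5-KO. Each LT-HFD library was above each ST-HFD library. The log2 fold change was 2.54 (0.44) in WT and 2.59 (0.44) in IRF5-KO.

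The PDGF receptors bind platelet-derived growth factors, mitogens of stromal cells. Pdgfra (ENSMUSG00000029231, chr5:75152292-75198215, plus strand), the receptor that marks adipocyte progenitors as a class, was 10.3, 15.3, 19.99 and 11.5 CPM in WT on ST-HFD and 99.6, 89.8, 96.0 and 332 CPM on LT-HFD. In IRF5-KO it was 23.3, 18.5, 22.4 and 8.86 CPM on ST-HFD and 203, 94.9, 191 and 196 CPM on LT-HFD. The 3 WT LT-HFD libraries other than replicate 4 lay within 10 CPM of each other. Log2 fold changes were 3.45 (0.43) in WT and 3.22 (0.42) in IRF5-KO, or 10.9-fold and 9.30-fold. Pdgfrb (ENSMUSG00000024620), which pericytes express as well as fibroblasts, was 4.18 to 8.35 CPM in WT and 2.71 to 10.4 CPM in IRF5-KO on ST-HFD. On LT-HFD it was 47.5, 32.8, 39.8 and 111 CPM in WT and 87.4, 29.8, 61.8 and 63.9 CPM in IRF5-KO. As with Pdgfra, no LT-HFD library fell into the ST-HFD range, and the log2 fold changes were 3.25 (0.43) and 2.95 (0.42).

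Their ligands did not all follow. Of the 4 PDGF ligand genes, all tested, 1 was called higher and 0 lower in each genotype. Pdgfd, which acts on PDGFR-beta, was the one called, with 1.03 and 1.25 mean CPM on ST-HFD and 6.49 and 8.17 on LT-HFD in WT and IRF5-KO, a log2 fold change of 2.60 (0.51) in WT and an adjusted p of 5.56e-04 in IRF5-KO by edgeR. Pdgfd passed the filter only through the LT-HFD libraries. Pdgfc, a PDGFR-alpha ligand and the most abundant of the 4 at a mean of 70.0 CPM over the 16 libraries, had log2 fold changes of 0.15 (0.20) and -0.23 (0.20). Pdgfb had -0.29 (0.28) and -0.24 (0.28), and Pdgfa had -0.58 (0.29) and -0.67 (0.29), none of them called.

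**Figure D2:**
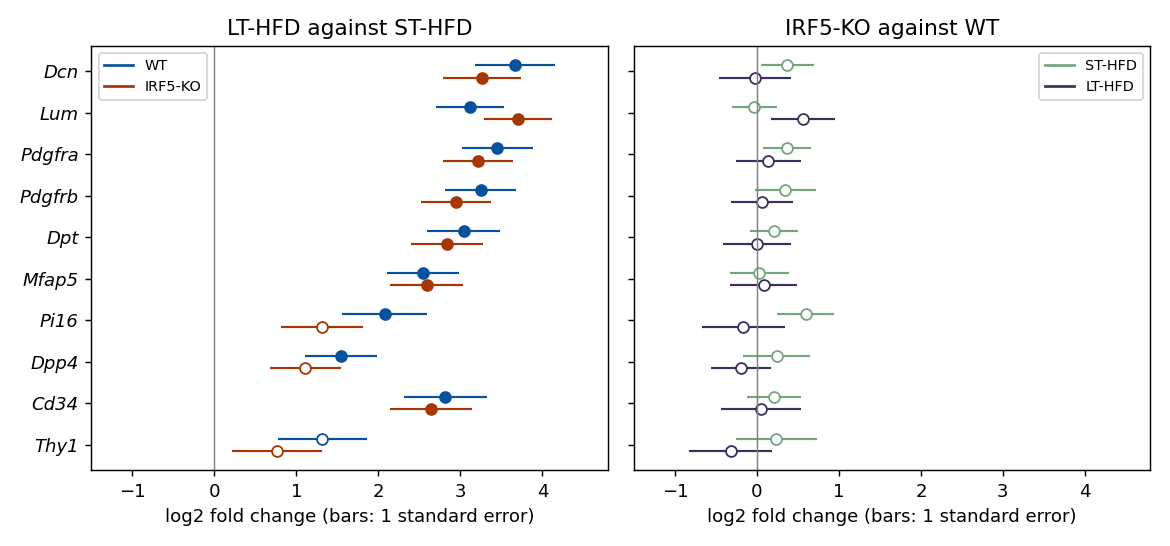
Log2 fold change of each transcript between diet durations (left, by genotype) and between genotypes (right, by diet duration), with bars of 1 standard error. Filled points have an adjusted p under 0.05 over all tested genes (edgeR), open points do not. The differences between durations lie between 0.76 and 3.70, those between genotypes between -0.32 and 0.60, and none of the latter is filled.

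The remaining 4 transcripts are surface or secreted markers of progenitors or fibroblasts, and 3 of them, Pi16, Dpp4 and Thy1, showed the smallest differences and the only overlaps between durations. Cd34 (ENSMUSG00000016494, chr1:194938819-194961279, plus strand), a sialomucin of progenitors that endothelial and blood-forming cells also carry, was 9.56, 12.1, 15.7 and 9.80 CPM in WT on ST-HFD and 41.5, 63.2, 51.5 and 173 CPM on LT-HFD. In IRF5-KO it was 12.0, 18.5, 18.7 and 5.42 CPM on ST-HFD and 119.7, 24.1, 91.6 and 107 CPM on LT-HFD. The durations did not overlap, and the log2 fold changes were 2.82 (0.51) and 2.65 (0.50).

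Pi16 (ENSMUSG00000024011, chr17:29317680-29330593, plus strand), a secreted peptidase inhibitor that marks universal fibroblasts, was 5.46, 13.5, 9.87 and 6.41 CPM in WT on ST-HFD and 24.2, 20.3, 23.4 and 78.3 CPM on LT-HFD. In IRF5-KO it was 14.0, 19.8, 12.7 and 6.40 CPM on ST-HFD and 52.3, 8.95, 27.8 and 42.9 CPM on LT-HFD. IRF5-KO replicate 2 on LT-HFD lay inside the ST-HFD range, and the WT groups did not overlap. The log2 fold change was 2.08 (0.52) in WT and called, and 1.31 (0.50) in IRF5-KO with an adjusted p of 0.0529 in edgeR's quasi-likelihood test. Without IRF5-KO LT-HFD replicate 2 it was 1.63 and called, and over the alternatives in IRF5-KO 6 of 15 fits called it.

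Dpp4 (ENSMUSG00000035000, chr2:62330073-62412231, minus strand) encodes CD26, a surface peptidase that T cells and dendritic cells also express. Its levels were 6.63, 11.4, 6.33 and 4.90 CPM in WT and 5.21, 13.9, 12.0 and 3.69 CPM in IRF5-KO on ST-HFD. They were 16.8, 26.2, 9.18 and 32.9 CPM in WT and 18.8, 9.22, 20.8 and 25.9 CPM in IRF5-KO on LT-HFD. In both genotypes 1 LT-HFD library lay below the highest ST-HFD library. The log2 fold change was 1.54 (0.43) in WT and called, and 1.11 (0.43) in IRF5-KO with an adjusted p of 0.0582 by edgeR. Without WT LT-HFD replicate 4 the WT value was 1.24 and its adjusted p 0.0642, so that library decides the call.

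Thy1 (ENSMUSG00000032011, chr9:44043384-44048579, plus strand), a surface glycoprotein of fibroblasts and of mouse T cells, was the lowest of the 10 and was counted 6 to 41 times per library. Its levels ran from 1.39 to 7.20 CPM on ST-HFD and from 1.95 to 11.1 CPM on LT-HFD, with overlap in both genotypes. The log2 fold changes of 1.31 (0.54) in WT and 0.76 (0.54) in IRF5-KO were not called. Without WT LT-HFD replicate 3, the WT value was 1.63 and was called, and without IRF5-KO ST-HFD replicate 2 the IRF5-KO value was 1.35.

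Pi16, Dpp4, Cd34 and Thy1 were also set against decorin within the same library, as counts per 100 Dcn counts, a scale that depends neither on depth nor on the scaling of the libraries. Dpp4 was at 4.22 to 11.7 in WT and 4.97 to 7.70 in IRF5-KO on ST-HFD, and at 1.13 to 3.28 and 1.18 to 1.74 on LT-HFD. Pi16 went from 6.17 to 13.9 and 6.34 to 13.4 on ST-HFD down to 2.54 to 3.28 and 1.47 to 3.28 on LT-HFD. Cd34 was at 10.5 to 12.4 and 9.21 to 11.5 on ST-HFD and at 4.81 to 7.92 and 3.97 to 7.51 on LT-HFD. All 4 of these transcripts were lower relative to Dcn in every LT-HFD library than in any ST-HFD library of their genotype, but so were 95.2% of the 11559 other tested genes in WT and 92.7% in IRF5-KO, Dcn itself being in the top 0.45% and 0.64% of tested genes by log2 fold change. Nothing particular to the 4 is read from this separation. The smallest gap was that of Thy1 in IRF5-KO, with 0.692 as the lowest ST-HFD and 0.624 as the highest LT-HFD value. Dpt and Mfap5 showed it in WT but overlapped in IRF5-KO. Lum and the PDGF receptors overlapped in both genotypes, with Pdgfra at medians of 13.7 and 13.1 counts per 100 Dcn counts on ST-HFD and 11.5 and 13.0 on LT-HFD. The ratio is a description of the same libraries as the fold changes, with no test.

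**Figure D3:**
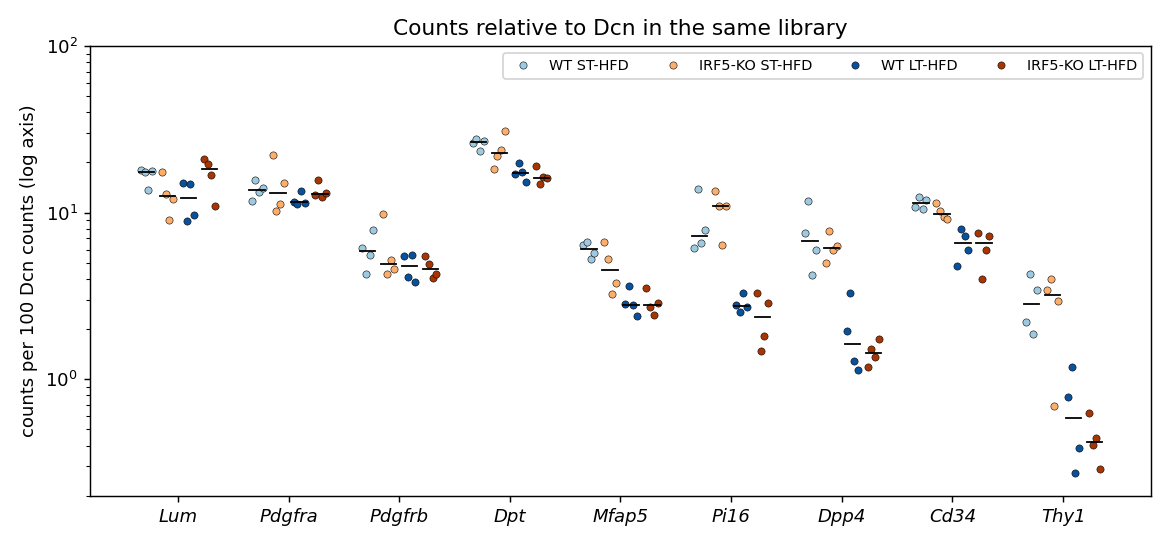
Counts of 9 transcripts per 100 Dcn counts in the same library, on a log axis, by group, with the group median as a bar. Pi16, Dpp4, Cd34 and Thy1 are lower on LT-HFD than on ST-HFD without overlap in both genotypes, as are 95.2% of other tested genes in WT and 92.7% in IRF5-KO, while Lum, Pdgfra and Pdgfrb overlap.

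Several of these 4 are also made by other cells that a fat pad holds, and the markers of those cells were checked beside them. Of 13 T cell and NK cell markers 3 passed the filter, and their list summed to 36.7 to 115 CPM on ST-HFD against 34.9 to 96.8 CPM on LT-HFD, most of it Il7r. The 3 averaged 53.9 CPM (Il7r), 8.50 CPM (Cd2) and 6.15 CPM (Cd4) over the 16 libraries, and the other 10 averaged from 0.16 CPM for Cd8b1 to 1.06 CPM for Cd3g, the T cell receptor complex genes Cd3e, Cd3d and Trac among them. Of 14 endothelial markers 11 passed, and the list summed to 938 to 2751 CPM, most of it Cd36, which macrophages and adipocytes share. Eng averaged 54.3 CPM, Tek 9.93 CPM, Pecam1 9.10 CPM, Vwf 9.07 CPM and Cdh5 8.47 CPM, and the other 8 from 0.36 to 4.63 CPM, beside group means of 2.94 to 7.33 CPM for Thy1. Dendritic cell markers summed to 63.7 to 160.0 CPM on ST-HFD against 27.4 to 154 CPM on LT-HFD. The part of these cells in the levels of Dpp4, Cd34 and Thy1 was not tested.

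Levels were compared between transcripts per kilobase of exon, with all annotated exons of a gene joined (5838 bases for Dcn, 10024 for Pdgfra). Such a length can exceed that of the transcripts present, so these levels and their order depend on the annotation. On ST-HFD, Dcn stood at 17.9 ± 5.30 CPM per kb (SD, n = 4) in WT and 23.3 ± 11.3 in IRF5-KO, Dpt at 15.5 ± 3.37 and 18.0 ± 8.53, and Lum at 6.94 ± 1.04 and 6.82 ± 2.77. The other 7 lay between 0.98 and 2.08 CPM per kb as group means. Dcn and Dpt overlapped, Lum lay below Dpt in each library without overlap, and the neighbours among the lower 7 all overlapped. On LT-HFD the order began Dcn, Dpt, Lum, Pdgfra and Cd34 in both genotypes and ended with Pi16, Dpp4 and Thy1. Dcn reached 226 ± 181 CPM per kb in WT and 223 ± 80.0 in IRF5-KO, against 2.45 ± 1.34 and 1.96 ± 1.08 for Thy1. Pdgfra held rank 6 on ST-HFD and rank 4 on LT-HFD in both genotypes. Of the neighbours in the LT-HFD orders, Lum and Pdgfra in IRF5-KO were the only pair whose ranges did not overlap.

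Set beside the sorting marker, decorin RNA was abundant on LT-HFD. Per kb of joined exons, a scale that depends on the annotation, Dcn stood at 6.81% to 15.1% of Adgre1 in WT and 4.87% to 21.9% in IRF5-KO on ST-HFD. On LT-HFD it stood at 48.3%, 63.0%, 66.6% and 269.5% in WT and at 33.8%, 92.2%, 117% and 120.3% in IRF5-KO. Adgre1 itself was not called lower on LT-HFD, with log2 fold changes of 0.20 (0.15) in WT, not called, and 0.46 (0.15) in IRF5-KO, called higher. Of the 14 macrophage markers 3 were called lower in WT and 6 in IRF5-KO, with 0 and 3 higher. By DESeq2 1 was higher and 7 were lower in IRF5-KO, and without replicate 2 or 3 of IRF5-KO LT-HFD, or replicate 2 or 3 of IRF5-KO ST-HFD, 0 were higher by edgeR, so that Adgre1 was not called in those fits. Csf1r, the receptor of the macrophage growth factor, was lower by a log2 fold change of -0.62 (0.12) and -0.88 (0.12), and Cd163, a scavenger receptor of resident macrophages, by -0.94 (0.33) and -1.86 (0.34). The summed macrophage list was 12366 to 16470.5 CPM on ST-HFD against 9749 to 15356 CPM on LT-HFD.

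The transcripts moved together from library to library, also within a group. WT LT-HFD replicate 4 was the highest library of its group for 10 of 10 transcripts, at 3.66 times the mean of the other 3 for Dcn, 3.49 for Pdgfra, 3.47 for Pi16 and 1.84 for Thy1. IRF5-KO LT-HFD replicate 2 was the lowest of its group for 10 of 10, and IRF5-KO ST-HFD replicate 4 for 9 of 10. Their summed level was 4431 CPM in WT LT-HFD replicate 4 against 1185 to 1402 in its group, 1002 against 2373 to 2778 in IRF5-KO LT-HFD replicate 2, and 115 against 218 to 349.8 in IRF5-KO ST-HFD replicate 4. Over the 45 pairs of transcripts the correlation of log2 CPM across the 16 libraries had a median of 0.90, from 0.62 to 0.99. With each group centred on its own mean the median was 0.84, from 0.43 to 0.96. Mfap5 followed the mean of the other 9 most closely (r = 0.99) and Thy1, with the fewest counts, least (r = 0.69). These correlations are descriptions over libraries that share their depth and preparation.

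**Figure D4:**
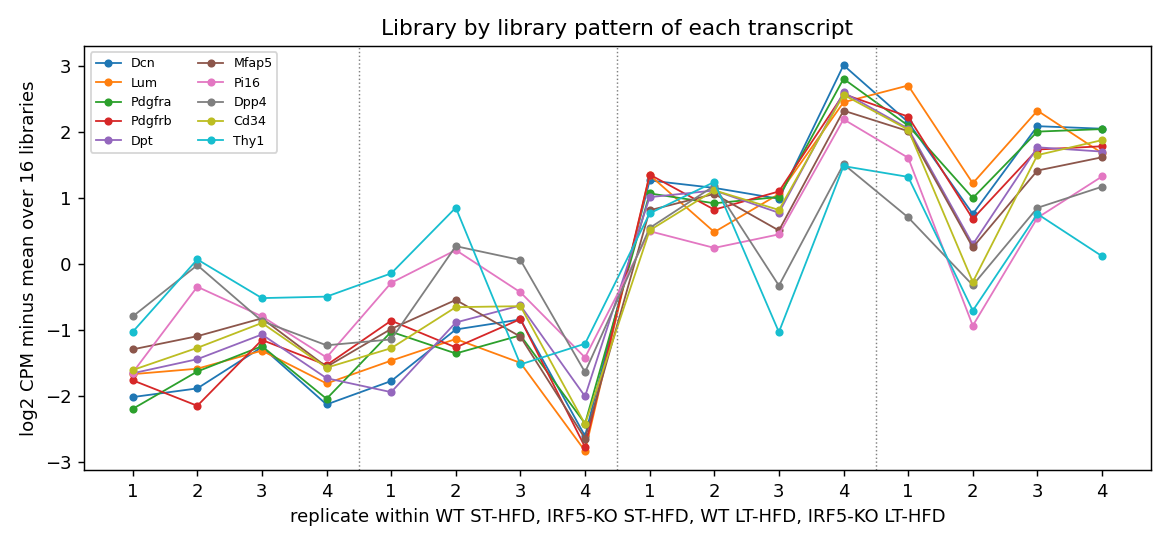
Log2 CPM of each transcript minus its mean over the 16 libraries, with the ST-HFD groups left of the LT-HFD groups, WT before IRF5-KO in each, and replicates 1 to 4 within a group. Lines join libraries only to guide the eye. The lines run together, with the peak in WT LT-HFD replicate 4 and the dips in IRF5-KO ST-HFD replicate 4 and IRF5-KO LT-HFD replicate 2.

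In WT LT-HFD replicate 4 the other stromal lists stood high too, and the following lists of other cell types did not. The 43 other stromal progenitor genes summed to 15557 CPM there against a mean of 5278 in the other 3 libraries (2.95 times), collagens to 2.31 times and small leucine-rich proteoglycans to 2.42 times. The ratio was 0.87 for endothelial markers, 1.05 for mural cell markers, 1.04 for adipocyte markers and 0.86 for macrophage markers. Without this library the median log2 fold change of the 10 between durations in WT was 2.29 and 8 were called. Dcn then stood at 2.93 (0.36), or 7.60-fold in place of 12.7-fold, Pdgfra at 6.73-fold in place of 10.9-fold, Dpt at 5.40-fold in place of 8.22-fold, Cd34 at 4.44-fold in place of 7.04-fold and Pi16 at 2.60-fold in place of 4.22-fold.

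Between genotypes, none of the 10 transcripts was called and the groups overlapped for all 10 at both durations. Groups without overlap were found for 0.639% of tested genes in the direction of higher and 0.83% of lower levels in IRF5-KO on ST-HFD, and for 1.34% and 1.67% on LT-HFD. On ST-HFD, 1 of 10958 tested genes was called, which is 0.00913%, and 2 were with the replicate number as a block. The log2 fold changes of the 10 lay between -0.03 for Lum and 0.60 for Pi16 with standard errors of 0.28 to 0.49, and 9 were above 0, as were 50.7% of all tested genes. On LT-HFD 2 of 10987 genes were called (0.0182%), and the 10 lay between -0.32 for Thy1 and 0.56 for Lum with standard errors of 0.37 to 0.51. Here 6 were above 0, against 50.1% of tested genes, and the median was 0.03. By DESeq2 0 of the 10 were called at either duration, and at an unadjusted p under 0.05 the edgeR count was also 0 at both. That count was 4 on ST-HFD without IRF5-KO ST-HFD replicate 4, where the median was 0.48 and 10 of 10 were above 0, and 1 with the replicate block or without WT ST-HFD replicate 2. On LT-HFD it was 3 without WT LT-HFD replicate 4 and 1 with no filter on low counts. The direction on LT-HFD changed with single libraries. Without WT LT-HFD replicate 4 the median was 0.62 and 9 of 10 were above 0, with Dcn at 0.71 (0.26) in place of -0.02 (0.44) and Pdgfra at 0.84 (0.22) in place of 0.14 (0.40). Without replicate 1, 2 or 3 of that group, 1 of 10 was above 0 in each fit, and without IRF5-KO LT-HFD replicate 2, 9 of 10 were. None of the 10 was called in any of these fits.

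The interaction of genotype and diet duration, which asks whether the difference between durations was itself different between genotypes, was called for 0 of 10 transcripts and for 0.0% of 11560 tested genes by edgeR, and for 0 by DESeq2. Without adjustment, 454 genes and 0 of the 10 had a p under 0.05. The estimates for the 10 ran from -0.76 (0.72) for Pi16 to 0.58 (0.56) for Lum, with 2 of 10 above 0, against 48.8% of tested genes, and a median of -0.27. That 9 transcripts were called in WT and 7 in IRF5-KO is therefore not shown to be a difference between genotypes. Without WT LT-HFD replicate 4, 7 of 10 estimates were above 0.

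Other genes known from stromal cells were taken from lists written with these results known, and are given for the size of their differences only. Of 43 other stromal progenitor genes 38 were tested, 33 were called higher in WT and 31 in IRF5-KO, and 0 and 1 lower, with median log2 fold changes of 2.65 and 2.32. Only 32 of the 43 passed the filter on the ST-HFD libraries alone, and of these 27 and 25 were higher. Of those called, Prrx1, a mesenchymal homeobox factor, had 3.37 (0.51) and 3.18 (0.51), Ebf2, a factor of committed preadipocytes, 3.35 (0.52) and 2.90 (0.51), and Twist2, a mesenchymal bHLH factor, 4.01 (0.81) and 2.61 (0.77). Ebf2 and Twist2 passed the filter only through the LT-HFD libraries. The log2 fold changes of the eosinophil chemokine Ccl11 were 3.23 and 2.79, those of the calcification inhibitor Mgp 2.67 and 3.17, and those of the protease Htra3 3.13 and 3.10. Igfbp4, among the 3 most abundant of the list, had 0.53 and 0.25, not called. Tcf4 was the gene called lower in IRF5-KO, at -0.55 (0.16), and was not called without IRF5-KO LT-HFD replicate 2, ST-HFD replicate 2 or ST-HFD replicate 3.

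Sema3c and Cd55, known from the same upstream progenitors as Dpp4 and Pi16, and the monooxygenase gene Fmo2 were called higher in WT and not in IRF5-KO. Their log2 fold changes were 1.60 (0.45), 2.32 (0.60) and 2.48 (0.52) in WT and 0.54 (0.45), 0.41 (0.57) and 0.79 (0.50) in IRF5-KO. For Cd55 the mean level was 7.25 and 15.6 CPM in WT and IRF5-KO on ST-HFD and 35.8 and 20.6 CPM on LT-HFD. The interaction was -1.06 (0.64), -1.91 (0.82) and -1.69 (0.72), with an adjusted p of 0.969 for each in edgeR's quasi-likelihood test, so the genotypes are not shown to differ.

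The lists of related matrix genes had lower medians than the 10, at 2.26 and 1.76 for proteoglycans and 1.47 and 1.27 for elastic fibre genes. Of the small leucine-rich proteoglycans related to Dcn and Lum, 7 of 11 were tested and 6 were called higher in each genotype, Ogn by 3.62 (0.41) and 3.34 (0.40) and Bgn, at a mean of 129 CPM or 21.1 CPM per kb, by 2.28 (0.30) and 2.07 (0.29). Kera and Chad were at 0 in every library. Of the elastic fibre and microfibril genes, to which Mfap5 belongs, 17 of 19 were tested, 9 were called higher and 1 lower in each genotype. On the ST-HFD libraries alone 16 passed the filter, of which 8 were higher and 1 lower in each genotype. Fbln1 (2.73 and 2.90) and Lox (2.68 and 2.62), which crosslinks collagen and elastin, stood at the upper end. Fbn1, the main fibrillin, at a mean of 251 CPM or 20.7 CPM per kb, had 0.76 (0.39) and 0.52 (0.39), not called, and Emilin2 was lower, at -0.93 (0.13) and -1.23 (0.13). Among 14 collagen genes 10 were higher in each genotype, with medians of 1.30 and 1.39. Without WT LT-HFD replicate 4, 7 collagens and 28 other stromal genes were called in WT.

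**Figure D5:**
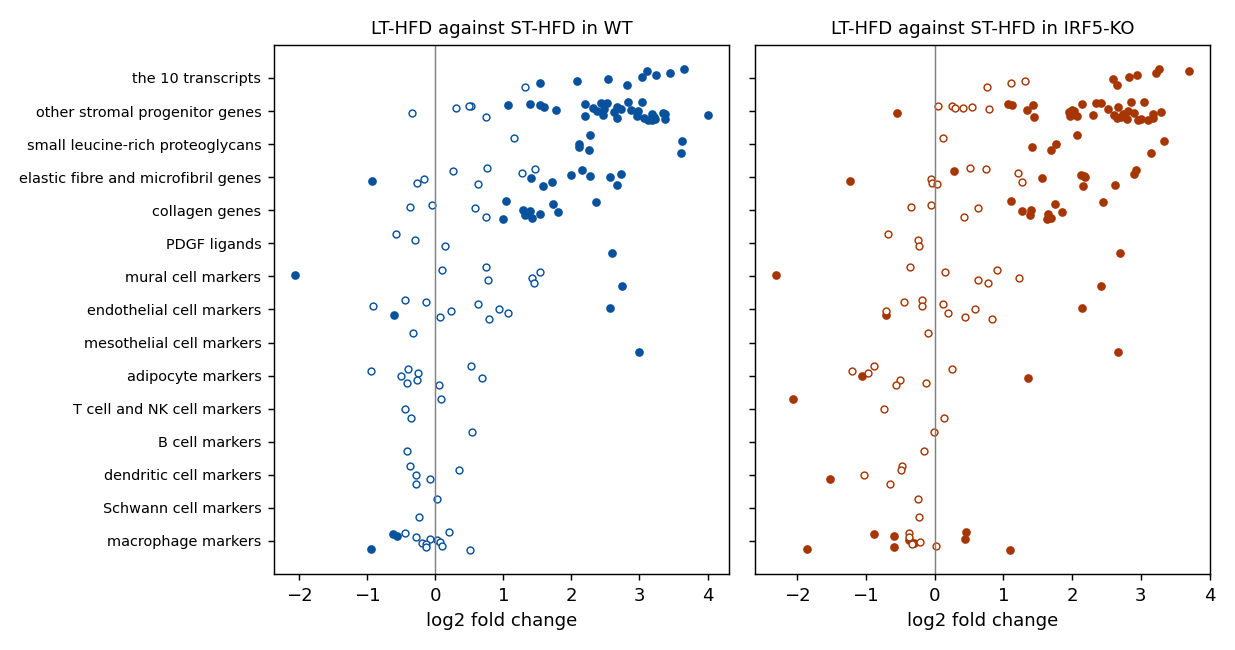
Log2 fold change between diet durations of each tested gene among the 10 transcripts and on 14 other lists, in WT (left) and IRF5-KO (right). Filled points have an adjusted p under 0.05 (edgeR). The 10 transcripts and the other stromal, proteoglycan and collagen genes lie mostly right of 0, and the lists of endothelial, T cell and NK cell, adipocyte and macrophage markers lie on both sides of it. The 5 dendritic cell, 2 B cell and 2 Schwann cell markers lie on both sides in WT and left of 0 in IRF5-KO.

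The lists of other cells of the fat pad were counted in the same way. Mural cell markers had 1 of 8 tested genes higher and 1 lower in each genotype, Des at 2.74 (0.52) and 2.42 (0.49) and Myh11, smooth muscle myosin, at -2.06 (0.71) and -2.31 (0.70). Rgs5, a pericyte marker, had 0.75 (0.74) and -0.35 (0.72), not called. Endothelial markers had 1 of 11 higher, Tek (2.57 and 2.14), and 1 lower, Eng (-0.60 and -0.70). Of 10 mesothelial markers 2 were tested, and Wt1, which visceral fat progenitors also express, was higher by 2.99 (0.48) and 2.66 (0.47) after passing the filter only through the LT-HFD libraries, while Upk3b had -0.33 (0.69) and -0.10 (0.77). The 9 tested adipocyte markers gave no call in WT, and in IRF5-KO Fabp4, which macrophages share, was higher at 1.35 (0.34) and Cidec lower at -1.05 (0.39). Adipoq averaged 2.13 CPM over the 16 libraries. T cell and NK cell markers had 0 calls in WT and 1 lower in IRF5-KO (Cd4), dendritic cell markers 0 and 1 lower (Cd209a), and B cell and Schwann cell markers 0 in both, where DESeq2 called 1 and 2 B cell markers higher. These counts moved with single libraries. Without IRF5-KO ST-HFD replicate 1, 4 endothelial and 3 mural markers were higher in IRF5-KO, and without WT ST-HFD replicate 1, 2 endothelial markers were higher in WT. Without IRF5-KO LT-HFD replicate 4, 3 dendritic cell markers were lower, and without IRF5-KO LT-HFD replicate 3, 2 adipocyte markers were. Leaving out each library, mural markers gave 1 to 2 calls of higher and 0 to 1 of lower levels in WT, against 1 to 3 and 0 to 1 in IRF5-KO. In IRF5-KO the counts of lower T cell and NK cell, dendritic cell and adipocyte markers fell to 0 in 5, 3 and 5 of these fits. Epididymal epithelium, which touches this fat pad, was represented by at most 2 counts per library over 8 markers, 4 of them at 0 throughout.

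The 10 genes whose pattern over the 16 libraries was most like the mean log2 CPM of the transcripts, out of 11550 others, were Plat, Islr, Scara3, Scara5, Ly6a, Adamts5, Tril, Clec3b, Ddr2 and Fstl1, with Pearson's r between 0.987 and 0.995. Plat encodes tissue plasminogen activator, Scara5 a ferritin receptor, Ly6a the progenitor antigen Sca-1, Adamts5 a protease of proteoglycans, and Ddr2 a collagen receptor. Of the 10, 4 were on the list of other stromal genes, Scara5, Ly6a, Clec3b and Ddr2. The 16 libraries fall into durations that differ in these levels, so r was also taken with each group centred on its mean. The same 10 then had r between 0.935 and 0.977, and 6 of them remained among the first 10.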

How the data were processed

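RNA of F4/80+ ATMs from 16 mice was sequenced from ribodepleted, stranded total RNA libraries. The deposited values are raw counts per gene, made by the authors with fastp 0.19.11 and STAR 2.7.3a on mm10 (the submitters' notes also list mm9), and the annotation release, the counting tool's strand setting and any batch are not given in the sources used here. Groups, durations and replicate numbers come from the sample titles, 0 columns were left unmapped, and no pair of the 120 library pairs agreed within sampling noise. Replicates are taken as separate mice, and where this does not hold, p-values measure only the spread between the libraries.

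The members, the other lists and the tests were chosen with earlier results of these data known. Counts were tested with edgeR 4.0.16 in R 4.3.3 (filterByExpr, TMM, quasi-likelihood F-test, Benjamini-Hochberg over all tested genes, threshold 0.05). Genotypes were compared within each diet duration over 8 libraries, and durations and the interaction in 1 fit over all 16. CPM use TMM factors over 16 libraries, log2 CPM a prior count of 2, and lengths and positions the GENCODE vM21 annotation of GRCm38, which matched 32620 of 37310 identifiers. The fits were also run on simulated counts. Each gene was drawn on its own there, without the shared shifts between libraries seen here, and nothing is read from it. All 10 members are named. Of other lists, genes called in a comparison and the 3 most abundant may be named, and the 10 genes with the highest Pearson r to the members. Pecam1, Cdh5, Vwf, Cd3e, Cd3d, Cd3g, Cd8b1, Trac, Adipoq, Kera and Chad were named after their values were seen.

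On ST-HFD, same-numbered WT and IRF5-KO libraries deviated together (r = 0.37, 0.48, 0.18 and 0.30). For numbers 1 to 3 the same number gave the highest r, whereas WT number 4 had 0.47 with an IRF5-KO library of another number. The labels state no pairing and the main fits used none, so a block by replicate number was fitted only as an alternative. On LT-HFD same-numbered libraries did not deviate together (-0.07, -0.15, 0.06 and 0.23), and the block was fitted there too. DESeq2 1.42.0, other scalings, no filter on low counts, a replicate block, other sample sets and leaving out each library served as alternatives.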

Additional observations from a re-analysis of the deposited data

Results flagged for a closer look

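Of 40 sets of 4 libraries (10 transcripts in 4 groups), 7 held a library whose gap to its nearest neighbour exceeded Dixon's 95% critical share of the range of the set. The check was made on CPM and not on a log scale, on which the flags can differ. For normally distributed values chance gives about 1 in 20 such sets, and whether CPM follow that was not tested. The 7 are not independent, since they lie in 2 libraries. WT LT-HFD replicate 4 stood above its group with 2899.9 CPM for Dcn (next 863), 332 CPM for Pdgfra (next 99.6), 444 CPM for Dpt (next 159), 78.3 CPM for Pi16 (next 24.2) and 173 CPM for Cd34 (next 63.2). IRF5-KO LT-HFD replicate 2 stood below its group with 607 CPM for Dcn (next 1488) and 94.9 CPM for Pdgfra (next 191). No difference between genotypes in the response to diet duration passed a test for any of the 10 transcripts.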

How the results depend on the processing

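No count of called transcripts moved by more than 1.5 times under any alternative, and no called value changed sign. The count in WT was 9 in every alternative but the fits that leave out a library (8 to 10), and in IRF5-KO it was 7 to 9, with 9 by DESeq2, with upper-quartile factors and with no filter. There Pi16 and Dpp4 were called, with adjusted p of 0.0354 and 0.0495 by DESeq2, and Pi16 also with the 8 libraries of that genotype alone. With a replicate block 9 and 7 were called between durations and 0 between genotypes and in the interaction, as without it. Leaving out each library, the median log2 fold change ran from 2.29 to 3.11 in WT, 2.52 to 3.02 in IRF5-KO, 0.05 to 0.48 between genotypes on ST-HFD, -0.16 to 0.62 on LT-HFD and -0.52 to 0.37 for the interaction. Signs of single transcripts changed in at least 1 alternative for 5 of 10 on ST-HFD, 8 of 10 on LT-HFD, 7 of 10 in the interaction and 0 of 10 between durations. Upper-quartile factors shifted the median of all genes to 0.10 in WT and 0.15 in IRF5-KO and split the calls 1786 higher to 1215 lower and 2462 to 1554, against 1401 to 1527 and 1801 to 1986. Library totals alone split the WT calls 1002 to 1858. Genes called between genotypes on LT-HFD were 2, but 6 by DESeq2 and 0 with the block. The other lists were put through the same alternatives after seeing the data. Leaving out each library gave 28 to 34 other stromal genes called higher in WT and 27 to 31 in IRF5-KO, 7 to 11 collagens in WT, and in IRF5-KO 4 to 8 macrophage markers lower and 0 to 3 higher. Thy1 rested on 6 to 41 counts per library.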

Other observations

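The libraries with the least stromal RNA of their groups differed in the rest of their marker lists. In IRF5-KO LT-HFD replicate 2 the 10 transcripts summed to 0.39 times the mean of the other 3 libraries and the other stromal genes to 0.47 times, collagens to 0.62 times and dendritic cell markers to 0.42 times. Adipocyte markers summed to 528 CPM there against 258 to 385 CPM in the other 3, endothelial markers, mostly Cd36, to 2751 CPM against 1814 to 2208 CPM, and macrophage markers to 0.92 times. In IRF5-KO ST-HFD replicate 4 the 10 transcripts summed to 0.38 times, small leucine-rich proteoglycans to 0.38 times, collagens to 0.51 times, other stromal progenitor genes to 0.68 times, elastic fibre genes to 0.70 times and mural cell markers to 0.15 times the mean of the other 3, with macrophage markers at 1.01 times and adipocyte markers at 0.88 times. These libraries were singled out after their values were seen.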
